A study of Mus musculus with 8 samples.

Results

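The 41 methyltransferase genes described here belong to enzyme families that transfer a methyl group. The targets are DNA, histone and other protein lysines, protein arginines and mRNA. These genes were chosen by symbol from a fixed list and make up 41 of the 33212 genes in the count table. All 41 had enough counts to be tested among 15291 genes.

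Those of the encoded proteins with methyltransferase activity take their methyl group from S-adenosylmethionine, which the liver makes from methionine. NNMT, nicotinamide N-methyltransferase, spends the same donor on nicotinamide, so the enzymes draw on one pool. Methylation of H3K4 and H3K36 marks transcribed genes, methylation of H3K9, H3K27 and H4K20 is found in silent or compacted chromatin, and DNA methylation at CpG pairs is copied to the new strand at each cell division.

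Liver RNA of male C57BL/6 mice was sequenced with 1 library per mouse, from 4 hepatocyte-specific Nnmt KO mice (Alb-Cre::Nnmt flox/flox, named Nnmt LKO in the labels) and 4 control mice (named WT in the labels and Nnmt flox/flox in the study's methods). Both groups ate the MCD diet (deficient in methionine and choline) over 8 weeks, so neither the diet nor a chow group enters the comparison. Alb-Cre acts in hepatocytes, and the other cells of the liver keep Nnmt. In RNA from whole tissue, fewer cells of a type cannot be told apart from less RNA per cell.

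Total counts ran from 75020072 to 87934362 per library, and 3 counts stood for 0.0341 to 0.04 CPM, the unit of counts scaled to the library total. Nnmt was at 31.8 to 83 CPM in Nnmt KO and 84.9 to 224 CPM in control libraries, and the groups did not overlap. Of all tested genes, 8.16% did not overlap either. By edgeR's quasi-likelihood test, the log2 fold change of Nnmt (Nnmt KO over control) was -1.28 (unadjusted p = 0.00256, adjusted p = 0.123). Of 45 cell type markers, 44 were tested, with 6 higher and 1 lower in Nnmt KO at an unadjusted p under 0.05 (15.9%, where 12.6% of all tested genes passed, 5.45% higher and 7.13% lower). The 8 hepatocyte markers summed to 68124 to 121469 CPM in Nnmt KO and 82638 to 126982 CPM in control libraries, and Ly6g was at 0 in every library. Library a of the Nnmt KO group stood apart, with a TMM scaling factor of 1.21 against 0.952 to 0.977 in libraries b to d. It had the lowest hepatocyte sum and the highest sums of stellate cell (905 CPM), cholangiocyte (278 CPM), macrophage (1262 CPM) and neutrophil (23.3 CPM) markers. Control library d came close for macrophage (1172 CPM) and neutrophil (20.2 CPM) markers. Sums of sinusoidal endothelium (173 CPM) and lymphocyte (3.54 CPM) markers in library a lay within the range of the other libraries. Without library a, 5 of the 44 markers were called higher and 1 lower, where 13.3% of all tested genes were called. By group, hepatocyte markers went from 1 higher and 1 lower to 4 higher and 1 lower of 8. Stellate cell markers went from 3 higher of 8 to 0 and cholangiocyte markers from 1 higher of 5 to 0. Lymphocyte markers kept 1 higher of 6, and the remaining groups had none in either fit. Values without library a are given for Dnmt1, Kmt5c, Ezh1, Prmt2, Kmt2a, Kmt2e and Setd7, and the counts over all members are given both ways.

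Levels were compared between genes as CPM per kilobase of exon, averaged over the 8 libraries. The methyltransferase genes spanned from 0.077 CPM per kilobase for Suv39h2 to 21.2 for Ehmt2, which encodes G9a, the main enzyme of H3K9 dimethylation in euchromatin. After Ehmt2 came Smyd5 at 15.2, Kmt5a at 14.4, Prmt1 at 13.3, Smyd2 at 11.2 and Prmt5 at 10.7. In control libraries, Kmt5a (15.1 ± 1.3 CPM per kilobase, SD, n = 4) and Prmt1 (14.1 ± 0.832, n = 4) differed by less than the SD of Kmt5a, as did Smyd2 (11.2 ± 0.978, n = 4) and Prmt5 (10.6 ± 0.764, n = 4) by that of Smyd2, while Ehmt2 and Smyd5 were further from the next gene than their SD. In Nnmt KO libraries, Smyd5 (13.3 ± 0.821, n = 4) was not above Kmt5a (13.6 ± 0.427, n = 4). The low end held Suv39h2, then Dnmt3b at 0.403, Smyd3 at 0.475 and Mettl14 at 0.546 CPM per kilobase. Suv39h2 had 6 to 45 counts per library, and its levels rest on very few reads.

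**Figure D1:**
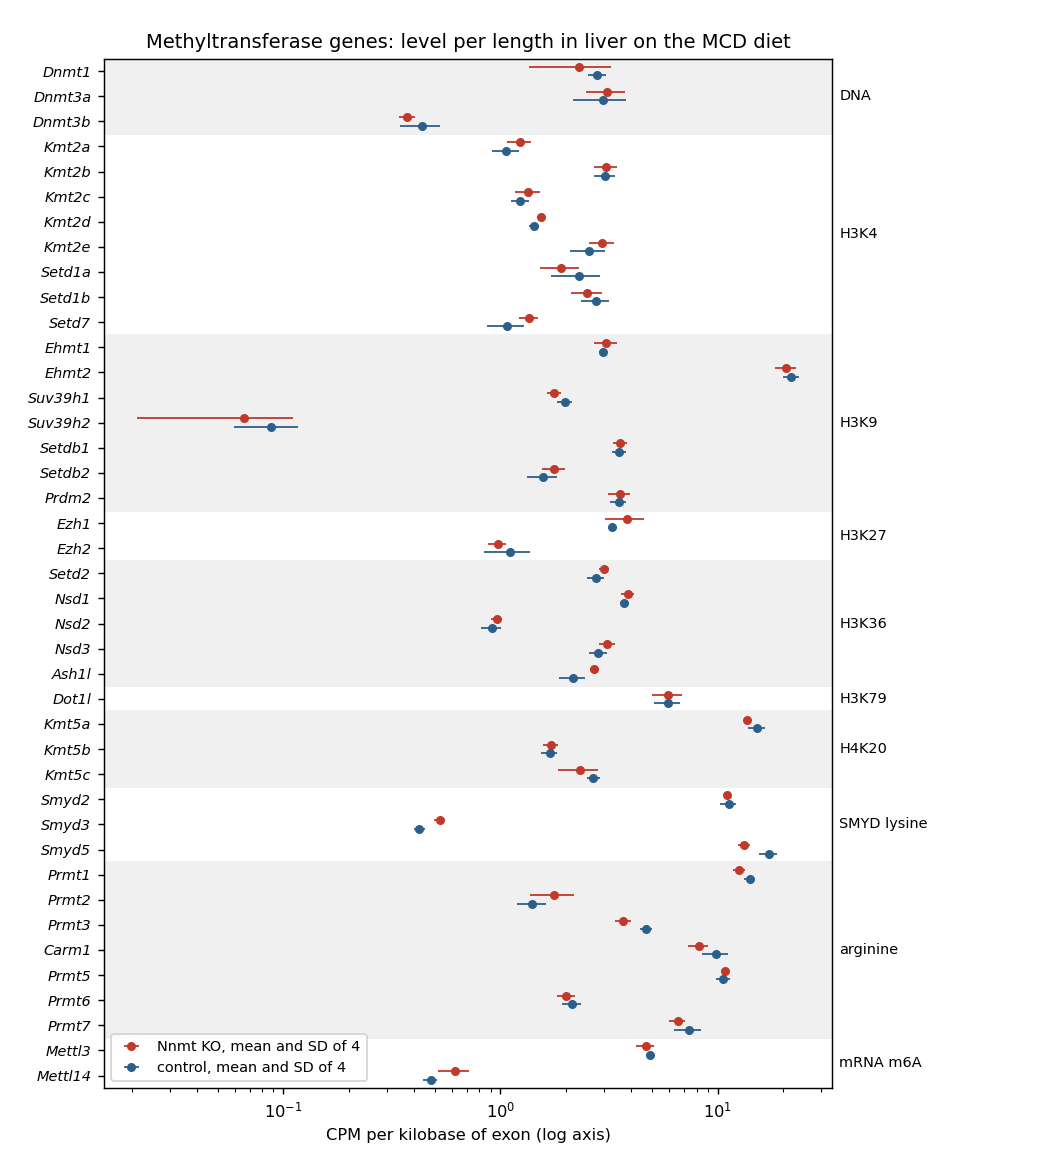
Level of each methyltransferase gene per kilobase of exon on a log axis, by genotype and enzyme class, as the mean and SD of 4 libraries. Ehmt2 is the highest at 21.2 and Suv39h2 the lowest at 0.077 CPM per kilobase, and the 2 genotypes lie close together for nearly every gene.

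The comparison of genotypes asked whether transcripts of the enzymes that share NNMT's methyl donor differed between livers labelled Nnmt KO, in which Nnmt was at 41.2% of the control mean, and control livers. By edgeR's quasi-likelihood test, 4 of 41 members had an unadjusted p under 0.05 (9.76%), where the share over all tested genes was 12.6%. Ash1l and Mettl14 were higher (5.45% of all genes were) and Smyd5 and Prmt3 lower (7.13%) in Nnmt KO mice. None passed a Benjamini-Hochberg adjusted p of 0.05 over all tested genes in edgeR, where the smallest adjusted p was 0.147 for Smyd5 and 0.32% of all genes passed. DESeq2's Wald test called 6 members at an unadjusted p under 0.05 (14.2% of all genes), adding Smyd3 and Setd7, and 1 of these, Smyd5, passed an adjusted p of 0.05 (adjusted p = 0.0416, with 3.35% of all genes passing).

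The differences were small. The members' log2 fold changes (Nnmt KO over control) had a median of 0.02, as did those of all tested genes, and ran from -0.42 to 0.37. Of the 41 members, 23 had a positive value, where 52.3% of all genes did. The 95% interval of the difference lay within 1.5-fold in either direction for 30 members, and for 46.2% of all genes. It lay within 2-fold for 40 members, the exception being the scarce Suv39h2, and for 73.3% of all genes. The members also varied little between mice of a genotype, with a median SD of 0.15 log2 CPM against 0.26 over all genes. Narrow intervals were not particular to the members. In the related gene lists described below, the interval lay within 1.5-fold for 30 of 38 tested partner subunits, 21 of 26 demethylases and 23 of 35 other methyltransferases.

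**Figure D2:**
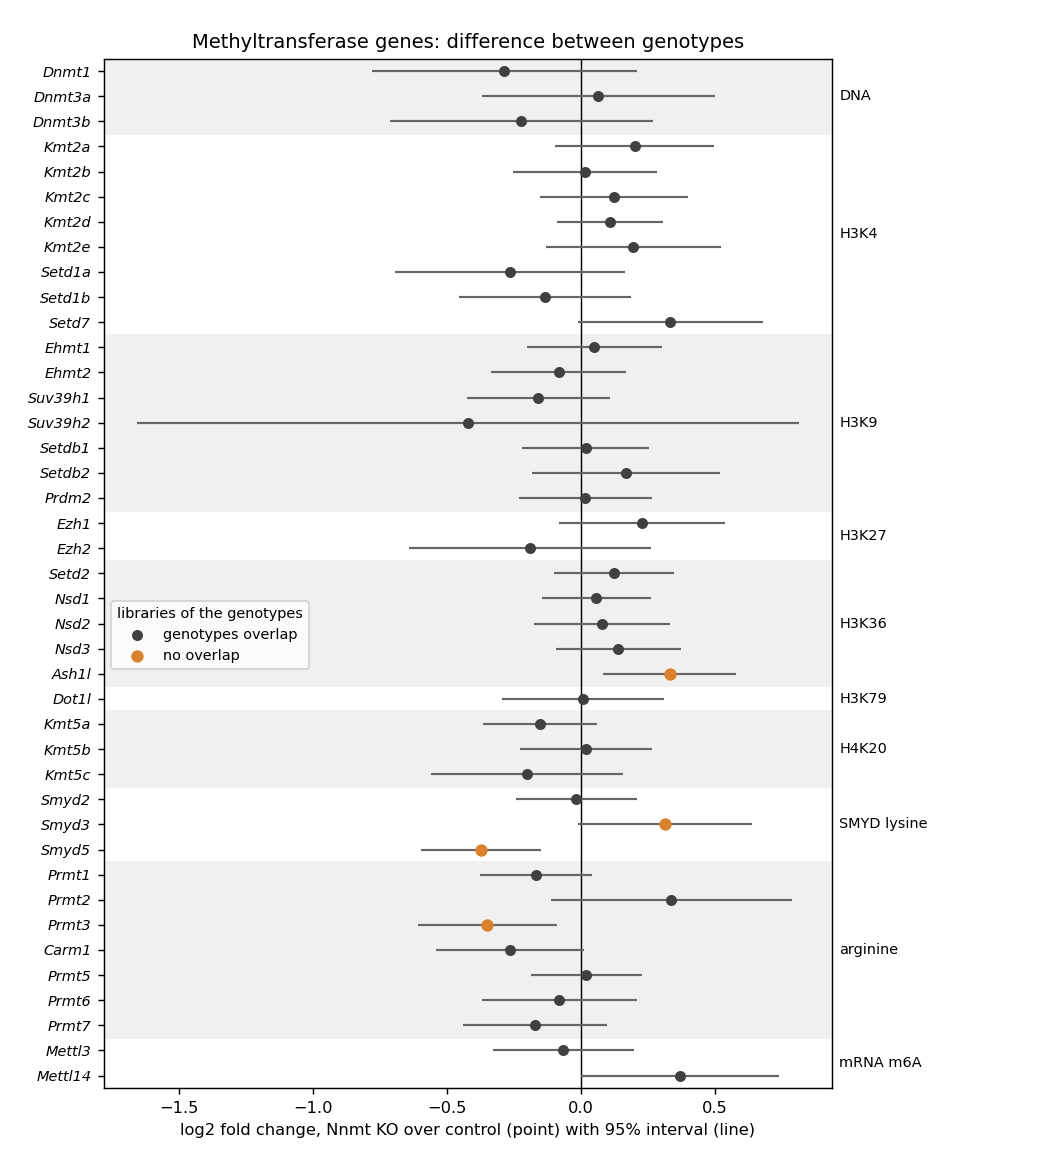
Log2 fold change of each methyltransferase gene in Nnmt KO over control liver (points) with its 95% interval (lines), by enzyme class. The 4 genes in orange, Ash1l, Smyd3, Smyd5 and Prmt3, are those whose 4 Nnmt KO libraries do not overlap the 4 control libraries.

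For 4 members the libraries of the genotypes did not overlap, with Ash1l and Smyd3 higher and Smyd5 and Prmt3 lower in Nnmt KO (9.76% of members). Of all tested genes 8.16% did not overlap, 3.34% being higher and 4.81% lower in Nnmt KO. The promoters of the lower pair, Smyd5 and Prmt3, are shown here because these were the members that were lower in every Nnmt KO library. Each sequence is the 250 bases before the gene's RefSeq start in GRCm38.p6, from 5′ to 3′ on the gene's strand, with a CCAAT box (CCAAT), a GC box (GGGCGG) or an E box (CACGTG) in capitals on either strand.
Smyd5, chr6:85431726-85431975, plus strand: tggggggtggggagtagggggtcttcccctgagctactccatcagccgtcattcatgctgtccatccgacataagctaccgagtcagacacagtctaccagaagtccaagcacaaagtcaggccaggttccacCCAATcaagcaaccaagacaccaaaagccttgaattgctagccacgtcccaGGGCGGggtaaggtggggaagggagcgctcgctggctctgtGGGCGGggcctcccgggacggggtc
Prmt3, chr7:49778108-49778357, plus strand: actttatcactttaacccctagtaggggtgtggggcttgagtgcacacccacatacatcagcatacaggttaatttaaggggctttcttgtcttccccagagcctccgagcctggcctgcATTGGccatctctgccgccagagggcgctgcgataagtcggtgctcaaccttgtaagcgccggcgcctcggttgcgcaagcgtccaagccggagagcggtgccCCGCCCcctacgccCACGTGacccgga
Both windows held a CCAAT box and a GC box, and Prmt3 also held an E box 13 bases before the start. Over the 30 members with a listed promoter, 36.7% held CCAAT (34.9% of 10974 promoters), 70% held GGGCGG (58.7%) and 10% held CACGTG (8.27%). The members' promoters were rich in CpG, with a median of 25 CpG pairs and 68% GC per 250 bases, against 16 pairs and 60.4% over all. The ATF4 motif TGATGNAA was in no member's window and in 1.82% of all, and CCGGAAG, the ETS motif, was in 10% and 13.4%. The NRF1 motif was in 16.7% of member windows (Ehmt1, Ezh1, Ezh2, Prmt2 and Suv39h2) and in 7.85% of all.

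Among the lysine methyltransferases of the SMYD family, Smyd5 (ENSMUSG00000033706, chr6:85431989-85446435) had the smallest p of all members. SMYD5 has been described as a lysine methyltransferase of histones and ribosomal protein. Its level was 35, 33.9, 32.7 and 30.3 CPM in the Nnmt KO mice (libraries a to d, as in each list of 4 values) and 47.7, 43.5, 41.4 and 38.1 CPM in the control mice. All Nnmt KO libraries lay below all control libraries, and their mean was 77.2% of that of the controls. This is a log2 fold change of -0.37 (standard error 0.10, edgeR unadjusted p = 0.00373, adjusted p = 0.147). It was between -0.42 and -0.29 in the 12 alternative fits, all with an unadjusted p under 0.05, and the adjusted p ranged from 0.0416 to 0.513.

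Smyd3 (ENSMUSG00000055067, chr1:178951960-179518041), which encodes a mainly cytoplasmic lysine methyltransferase, went the other way. Its level was 4.4, 4.65, 4.45 and 4.02 CPM in Nnmt KO and 3.78, 3.33, 3.36 and 3.62 CPM in control libraries. The libraries did not overlap, but the log2 fold change of 0.31 (standard error 0.15) did not pass edgeR's test (unadjusted p = 0.0565, adjusted p = 0.409). Smyd2, whose product methylates p53 and other proteins, was at 18 to 19.4 CPM in Nnmt KO and 17.1 to 20.4 CPM in control libraries, with a log2 fold change of -0.02 and a 95% interval from -0.24 to 0.21. An annotated antisense gene covers 39.2% of the exon bases of Smyd2, and its reads may be among these counts.

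Of the 7 arginine methyltransferases, 1 was lower at an unadjusted p under 0.05 (7.13% of all tested genes were) and 6 did not pass. Prmt3 (ENSMUSG00000030505, chr7:49778346-49858265), which methylates the small ribosomal protein RPS2 in the cytosol, was at 8.97, 8.8, 8.8 and 10.4 CPM in Nnmt KO and 12.3, 10.6, 12.1 and 12.1 CPM in control libraries. The groups met closely, with Nnmt KO library d just under control library b. The log2 fold change was -0.35 (standard error 0.12, edgeR unadjusted p = 0.0129, adjusted p = 0.245), and with scaling by library size only it was -0.30 and lost its call (unadjusted p = 0.0931).

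Prmt1 (ENSMUSG00000052429), the enzyme responsible for most asymmetric arginine dimethylation, was the highest of the class per kilobase. It was at 30, 27.3, 30.1 and 26.7 CPM in Nnmt KO and 33.3, 33.6, 32 and 29.4 CPM in control libraries. The ranges overlapped only through control library d, and the log2 fold change was -0.17 (standard error 0.10, unadjusted p = 0.107, adjusted p = 0.501). Carm1, a coactivator that methylates histone H3, had a log2 fold change of -0.27 (95% interval -0.54 to 0.01), and 23.9% of its exon bases also belong to Yipf2 on the opposite strand. Prmt5, the main enzyme of symmetric dimethylation, was at 28.4 to 30.2 CPM in Nnmt KO and 25.6 to 30.2 CPM in control libraries (log2 fold change 0.02, interval -0.19 to 0.23). Prmt6 and Prmt7 had values of -0.08 and -0.17, and Prmt2 had 0.34 with an interval from -0.11 to 0.79. Prmt2 was at 5.08 CPM in Nnmt KO library a and 3.21 to 3.65 CPM in libraries b to d, and without library a its log2 fold change was 0.16.

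The 5 H3K36 methyltransferases all had a positive log2 fold change, from 0.06 for Nsd1 to 0.33 for Ash1l. Of the 5, 1 was higher at an unadjusted p under 0.05 (5.45% of all tested genes were). Ash1l (ENSMUSG00000028053, chr3:88950622-89079375) encodes a trithorax-group enzyme that opposes Polycomb silencing. It was at 30.1, 30.3, 33 and 32.7 CPM in Nnmt KO and 22, 23.7, 24.6 and 29.9 CPM in control libraries. The lowest Nnmt KO library lay just above control library d, which was itself apart from the other 3 control libraries. The log2 fold change was 0.33 (standard error 0.11, edgeR unadjusted p = 0.0133, adjusted p = 0.247). All 12 alternative fits kept an unadjusted p under 0.05, with log2 fold changes from 0.29 to 0.43 and adjusted p from 0.122 to 0.56.

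Nsd1, an H3K36 dimethylase and the highest of that class per kilobase, was at 57.6, 50.1, 50.3 and 52.3 CPM in Nnmt KO and 50.1, 48.4, 52.9 and 50.7 CPM in control libraries. The groups overlapped (log2 fold change 0.06, standard error 0.09, unadjusted p = 0.545, adjusted p = 0.836). Setd2, the H3K36 trimethylase that travels with RNA polymerase II, had 0.12 (interval -0.10 to 0.35). Nsd2 and Nsd3 had 0.08 and 0.14.

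The m6A writer complex pairs the catalytic METTL3 with METTL14, which holds the RNA. Mettl14 (ENSMUSG00000028114, chr3:123368297-123386108) was at 4.11, 4.71, 3.85 and 5.5 CPM in Nnmt KO and 3.34, 3.9, 3.38 and 3.44 CPM in control libraries. Nnmt KO library c was just under control library b, so the groups overlapped by this pair. The log2 fold change was 0.37 (standard error 0.17, edgeR unadjusted p = 0.0495, adjusted p = 0.395), and 3 of the 8 fits that each left out 1 library kept an unadjusted p under 0.05. It was lost without Nnmt KO library b or d and without control library a, c or d, where the log2 fold change was at least 0.27. Mettl3 was at 10.6, 9.07, 9.57 and 8.47 CPM in Nnmt KO and 10.4, 10, 9.51 and 9.55 CPM in control libraries. These ranges overlapped, and the log2 fold change was -0.07 (standard error 0.12, unadjusted p = 0.593, adjusted p = 0.86).

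**Figure D3:**
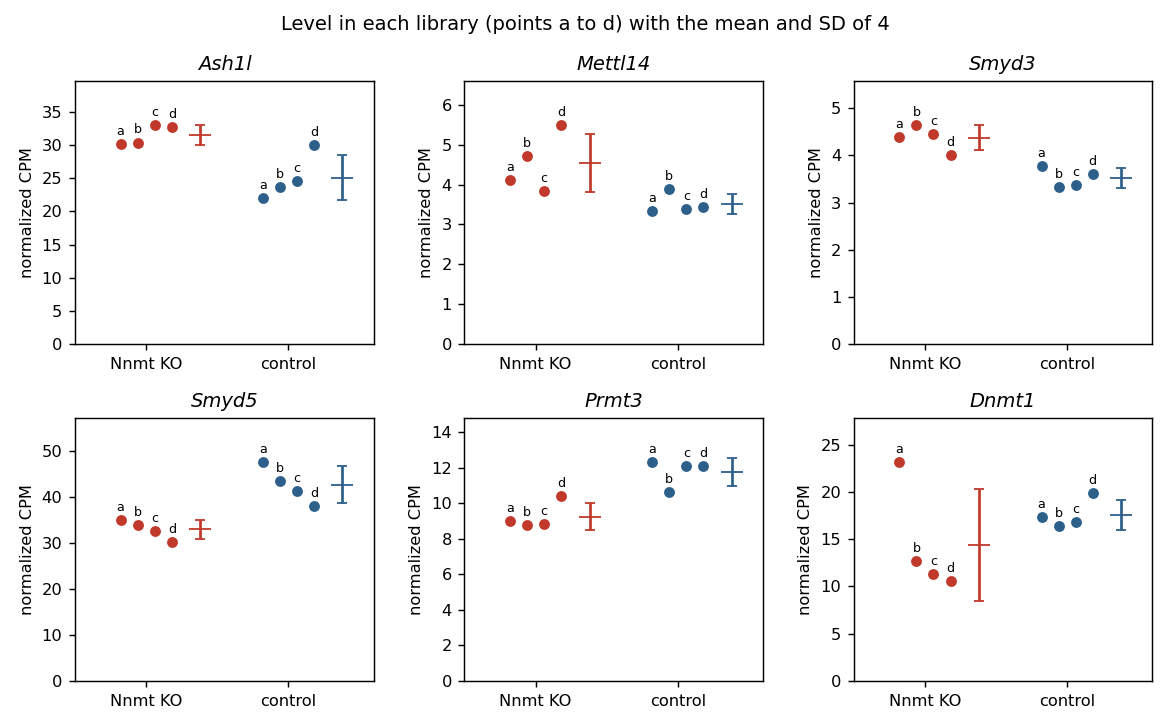
Normalized CPM of 6 methyltransferase genes in each library (points lettered a to d), with the mean and SD of 4 libraries beside them. Smyd5 and Prmt3 are lower and Ash1l and Smyd3 higher in every Nnmt KO library, Mettl14 overlaps by 1 pair of libraries, and for Dnmt1 Nnmt KO library a lies above all others at 23.2 CPM.

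Dnmt1, the maintenance DNA methyltransferase, did not pass the test but had the largest SD within genotypes (0.38 log2 CPM) after the scarce Suv39h2, and was chosen after its values were seen. It was at 23.2, 12.7, 11.3 and 10.5 CPM in Nnmt KO and 17.4, 16.3, 16.8 and 19.9 CPM in control libraries. Nnmt KO library a was the highest of all 8, and libraries b to d were the lowest. With all libraries the log2 fold change was -0.29 (standard error 0.23, edgeR unadjusted p = 0.231, adjusted p = 0.64). Without Nnmt KO library a it was -0.61 (standard error 0.13, edgeR unadjusted p = 0.000533, adjusted p = 0.0537), and over the 12 alternatives the adjusted p ranged from 0.0537 to 0.881. This fit leaves out the 1 library that went against the difference, and it was singled out with its Dnmt1 value known. Its omission enlarges the difference and narrows the spread by itself, so these p-values describe the fit and do not test a difference.

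Genes of DNA replication and cell division were also uneven in these libraries. Uhrf1, which brings DNMT1 to newly copied DNA, was at 6.63, 2.17, 0.872 and 1.58 CPM in Nnmt KO and 4.56, 4.3, 4.18 and 2.93 CPM in control libraries. Mcm2, a subunit of the replicative helicase, was at 23.5, 11.9, 9.34 and 9.92 CPM in Nnmt KO and 20.3, 16.9, 20.9 and 22.7 CPM in control libraries. Both repeated the order seen for Dnmt1, with library a on top and libraries b to d below every control library. Of 18 proliferation genes, 15 were highest in Nnmt KO library a, where 20.6% of all tested genes were. The median over the 18 was 2.35 times the mean of libraries b to d. Mcm2, Mcm3, Mcm5 and Mcm6 were lower in libraries b to d than in every control library, a pattern that 7.49% of all tested genes had. With all libraries 1 of the 18 was called at an unadjusted p under 0.05, and it was lower (12.6% of all tested genes were called, 7.13% lower). Without library a 6 were called, all lower, where 13.3% of all tested genes were called in either direction. Because 15 of the 18 were highest in library a, leaving it out lowers their Nnmt KO values by itself. These calls are therefore not separate support for a difference. The sum of the 18 genes was 188 CPM in library a, 83.3 to 111 CPM in libraries b to d and 123 to 158 CPM in control libraries. Their part in the Dnmt1 values was not tested.

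**Figure D4:**
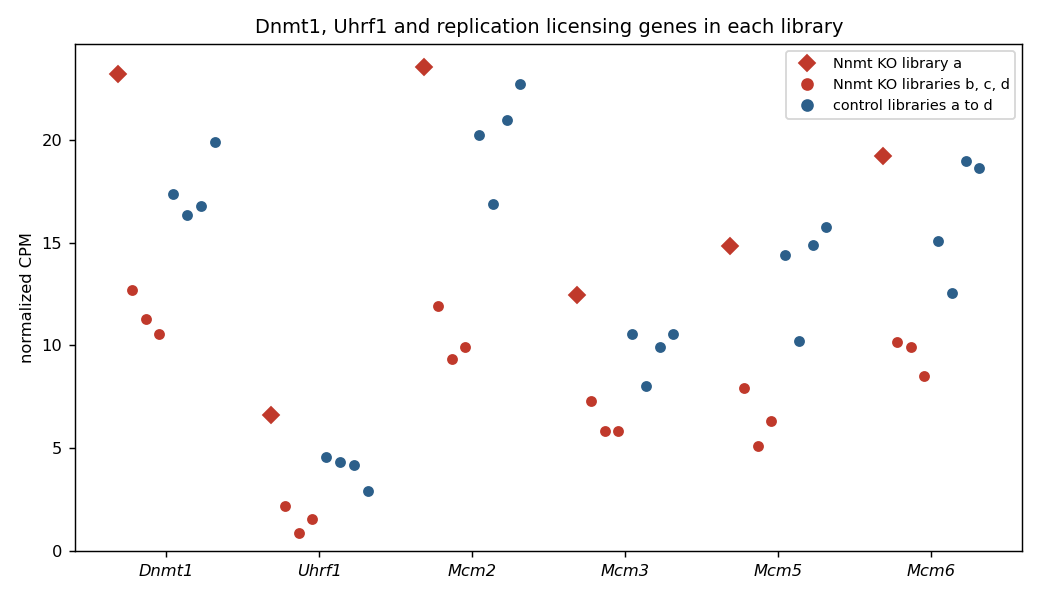
Normalized CPM of Dnmt1, Uhrf1 and 4 Mcm genes in each library, with Nnmt KO library a as a diamond. Nnmt KO libraries b to d (red circles) lie below all 4 control libraries (blue) for each of the 6 genes, while Nnmt KO library a lies above them for every gene but Mcm5, with Dnmt1 at 23.2 CPM against 16.3 to 19.9 CPM.

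Library a was above the other 7 libraries for 15 of the 41 members, where 20.6% of all tested genes had that pattern. Beside Dnmt1, Dnmt3a, Ezh1 and Prmt2 were among these. Leaving it out called 6 members at an edgeR unadjusted p under 0.05 (13.3% of all genes), adding Dnmt1 and Kmt5c, with a log2 fold change of -0.35 for Kmt5c (unadjusted p = 0.0372, adjusted p = 0.339). Library a was the highest of all libraries for both, so these added calls follow from leaving it out and are not separate support. Without library a, Ash1l, Mettl14, Smyd5 and Prmt3 kept an unadjusted p under 0.05. Without it 20 of the 41 members had a positive value, in place of 23. In 250 bases before the start, an E2F motif (TTTCGCGC, TTTGGCGC, TTTCCCGC or TTTGCCGC, either strand) was in 3 of 30 member windows, those of Dnmt1, Kmt5c and Suv39h1, and in 3.27% of all promoters. This rests on very few windows, and a link between the motif and the levels was not tested. The Dnmt1 window is that of the downstream start among 3 listed, and it overlaps the first coding exon of other annotated Dnmt1 transcripts.

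The de novo DNA methyltransferases did not differ detectably. Dnmt3a, the highest DNA methyltransferase per kilobase, was at 39.5, 26.3, 31.2 and 26.1 CPM in Nnmt KO and 25.9, 20.6, 31.9 and 39.3 CPM in control libraries. The libraries varied widely within both groups, and the log2 fold change of 0.06 (standard error 0.20, unadjusted p = 0.75, adjusted p = 0.918) turned negative when Nnmt KO library a or control library b was left out. Dnmt3b was scarce, at 1.52 to 1.8 CPM in Nnmt KO and 1.54 to 2.34 CPM in control libraries (log2 fold change -0.22, interval -0.71 to 0.27).

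None of the 8 H3K4 methyltransferases passed an unadjusted p of 0.05 in edgeR (12.6% of all tested genes did), and their smallest adjusted p there was 0.41. DESeq2 called 1 of them, Setd7, at an unadjusted p under 0.05 (14.2% of all tested genes). Kmt2b, one of the MLL enzymes of promoters and the highest of the class per kilobase, was at 26.5, 27.6, 28.3 and 21.4 CPM in Nnmt KO and 23, 29.4, 25.7 and 24.6 CPM in control libraries. These overlapped throughout (log2 fold change 0.02, standard error 0.12, unadjusted p = 0.901, adjusted p = 0.971). The enhancer enzymes Kmt2c and Kmt2d had log2 fold changes of 0.12 and 0.11, and Kmt2d, at 29.4 to 32.1 CPM in Nnmt KO and 26.4 to 29.9 CPM in control libraries, varied least of all members between mice (SD 0.06 log2 CPM). Kmt2a and Kmt2e, which is thought to have no methyltransferase activity, both had 0.20, or 0.11 and 0.12 without Nnmt KO library a. Setd1a and Setd1b, the enzymes of broad H3K4 trimethylation, had -0.27 and -0.14, but 53.3% of the exon bases of Setd1a also belong to an overlapping gene on the same strand, so its counts may be split. Setd7, a monomethylase of H3K4 and of other proteins, was at 9.14 to 11.4 CPM in Nnmt KO and 6.73 to 10.1 CPM in control libraries. Its log2 fold change of 0.33 had an unadjusted p of 0.0569 in edgeR and 0.0468 in DESeq2. Nnmt KO library a was the highest of all libraries for Setd7, and without it the log2 fold change was 0.27 (edgeR unadjusted p = 0.134).

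Of the 7 H3K9 methyltransferases, none passed an unadjusted p of 0.05 in edgeR or DESeq2 (12.6% and 14.2% of all tested genes did). Ehmt2 was at 88.9, 87.9, 91.6 and 70.9 CPM in Nnmt KO and 89.5, 101, 84.5 and 84.5 CPM in control libraries, which overlapped (log2 fold change -0.08, standard error 0.11, unadjusted p = 0.486, adjusted p = 0.803). Its partner Ehmt1 had 0.05, and the 95% interval of both lay within 1.5-fold. Setdb1, which silences transposable elements, was at 16 to 18.5 CPM in Nnmt KO and 14.9 to 18 CPM in control libraries (log2 fold change 0.02), and Setdb2 had 0.17. The heterochromatin enzymes Suv39h1 and Suv39h2 had -0.16 and -0.42, the second with an interval from -1.66 to 0.81, and Prdm2 had 0.02.

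The H3K27 methyltransferases EZH1 and EZH2 are the alternative catalytic subunits of Polycomb complex PRC2, EZH2 in dividing and EZH1 in resting cells. Ezh1 was at 29.1, 22.6, 23.5 and 17.6 CPM in Nnmt KO and 19.8, 20.5, 20 and 19.2 CPM in control libraries. The spread among Nnmt KO libraries covered the control range (log2 fold change 0.23, standard error 0.14, unadjusted p = 0.136, adjusted p = 0.538), and the log2 fold change was 0.10 without Nnmt KO library a (unadjusted p = 0.449) and 0.34 without library d (unadjusted p = 0.0144). Ezh2, at 2.44 to 2.96 CPM in Nnmt KO and 2.39 to 4.06 CPM in control libraries, had a log2 fold change of -0.19 (interval -0.64 to 0.26). Per kilobase, Ezh1 at 3.54 was above Ezh2 at 1.04 CPM.

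Dot1l, which encodes the main H3K79 methyltransferase, was at 33.5, 46.1, 45.2 and 36.4 CPM in Nnmt KO and 37.6, 48.2, 39.1 and 35.5 CPM in control libraries. Both groups covered the same range (log2 fold change 0.01, standard error 0.14, unadjusted p = 0.96, adjusted p = 0.987). Kmt5a, the H4K20 monomethylase needed for cell division, was at 41.6, 39.9, 39.5 and 42.1 CPM in Nnmt KO and 46.7, 39.7, 48.8 and 46 CPM in control libraries. Control library b lay among the Nnmt KO libraries and the other 3 above them (log2 fold change -0.15, standard error 0.10, unadjusted p = 0.144, adjusted p = 0.55). Kmt5b and Kmt5c, which add the second and the third methyl group, had log2 fold changes of 0.02 and -0.20.

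The sign of the difference followed transcript length. Of the 22 members with at least 5 kb of exon, 19 had a positive log2 fold change, and of the 19 shorter members, 4 had one. All tested genes leaned the same way, with 67.1% of 3436 genes of at least 5 kb positive and 47.9% of 11713 shorter genes. Across members, Spearman's rho between exon length and log2 fold change was 0.52 (n = 41), and across all tested genes it was 0.19 (n = 15149). Genes of one library set share its RNA quality and depth, and they are not independent replicates. The rho among members was between 0.47 and 0.55 in the 12 alternative fits. Over all genes it was 0.11 without Nnmt KO library a and 0.09 with no filter on low counts. Without library a, 17 of the 22 longer and 3 of the 19 shorter members were positive.

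**Figure D5:**
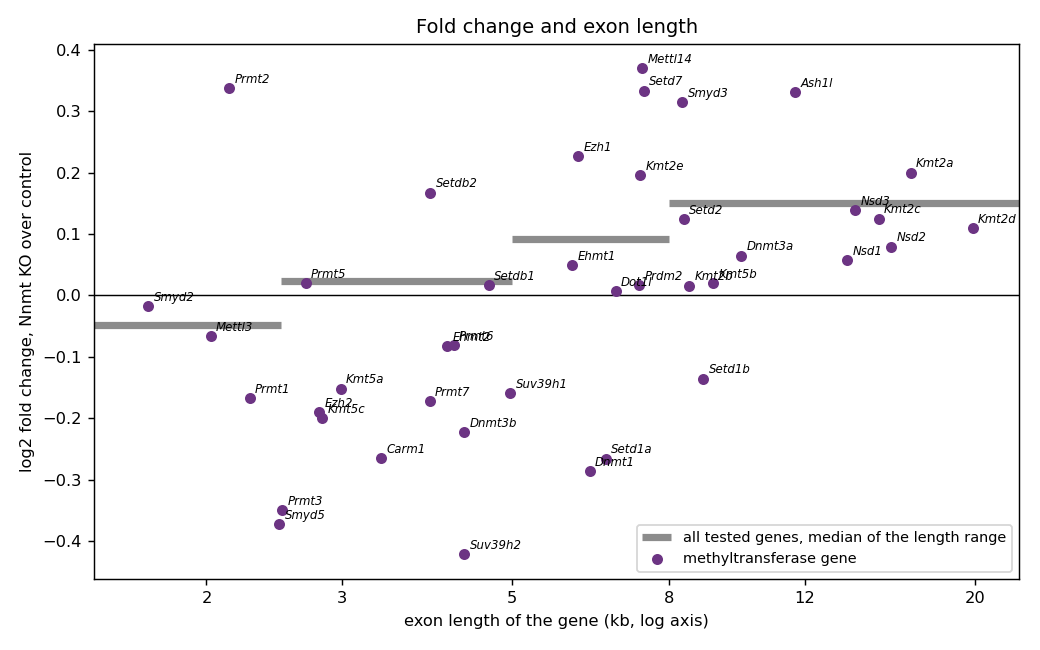
Log2 fold change of each methyltransferase gene (points) against its exon length in kilobases on a log axis, with grey bars for the median of all tested genes in 4 length ranges. The grey medians climb from -0.05 under 2.5 kb to 0.15 from 8 kb, and 12 of 13 members of at least 8 kb are positive.

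By length range, the medians over all genes were -0.05 under 2.5 kb, 0.02 from 2.5 to 5 kb, 0.09 from 5 to 8 kb and 0.15 from 8 kb. The members' medians in these ranges were -0.07, -0.17, 0.05 and 0.11, over 5, 14, 9 and 13 genes. Each member median was below that of all genes of the same range. After the median of genes of like length was subtracted, a step chosen after seeing the data, the members' median was -0.08, with 11 positive and 30 negative values. The H3K36 enzymes, all above 0 before, then had 1 positive and 4 negative values. The part of length in the single differences was not tested.

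Of the members, 5 lie on chromosome 7, where the median log2 fold change over 1155 tested genes was -0.14 against 0.02 on the other autosomes. Prmt3, Setd1a, Kmt5c and Prmt1 had negative values and Kmt2b had 0.02. Within 5 Mb of Prmt3, the median of 90 other tested genes was -0.08, and 16.7% of them had a lower value than Prmt3 at -0.35. Within 5 Mb of Setd1a the median of 131 genes was -0.30, close to its own value of -0.27. For Kmt5c (67 genes) the neighbours' median was -0.02, for Prmt1 (127 genes) -0.06 and for Kmt2b (178 genes) -0.07. What the shift along chromosome 7 contributes to these members was not tested.

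The proteins that hold these enzymes in complexes were counted next, from a list of 40 genes of which 38 were tested. At an unadjusted p under 0.05, 1 was higher and 4 were lower in Nnmt KO (13.2%, close to the 12.6% of all tested genes). None passed an adjusted p of 0.05 in edgeR, and 3 did in DESeq2 (Aebp2, Clns1a and Pagr1a), where 3.35% of all genes passed. Aebp2, a PRC2 cofactor that binds DNA and nucleosomes, was at 29.1, 24.3, 28.8 and 35.5 CPM in Nnmt KO and 19.9, 20.3, 20.6 and 15.4 CPM in control libraries. Every Nnmt KO library was higher (log2 fold change 0.63, standard error 0.14, unadjusted p = 0.000861, adjusted p = 0.0899). It was the only one of 9 tested PRC2 partners to pass (11.1%, against 12.6% of all tested genes).

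In the COMPASS complexes that carry the H3K4 enzymes, 2 of 11 tested partners were lower at an unadjusted p under 0.05 (7.13% of all tested genes were) and none higher (5.45%). Pagr1a, a subunit of the Kmt2c and Kmt2d complexes, was at 10.7, 15.6, 14.6 and 13.6 CPM in Nnmt KO and 21.2, 22.1, 21.2 and 17.6 CPM in control libraries. The groups did not overlap (log2 fold change -0.59, standard error 0.14, unadjusted p = 0.00121, adjusted p = 0.0986). Rbbp5, a core subunit of all COMPASS complexes, was at 18.3 to 19.7 CPM in Nnmt KO and 20.1 to 24 CPM in control libraries (log2 fold change -0.24, unadjusted p = 0.0325, adjusted p = 0.338), and its call held in 2 of the 8 fits without 1 library. Clns1a, whose product pICln brings Sm proteins to PRMT5, was at 22.5, 27.7, 27 and 26.4 CPM in Nnmt KO and 40.9, 34.6, 33.6 and 38.6 CPM in control libraries. It too was lower in every Nnmt KO library (log2 fold change -0.51, standard error 0.11, unadjusted p = 0.000618, adjusted p = 0.075), while Prmt5 itself had 0.02. Pagr1a and Clns1a also lie on chromosome 7, where the neighbours within 5 Mb had medians of -0.30 and -0.14.

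Of the 26 demethylases that take these marks off, 2 were higher and none lower at an unadjusted p under 0.05 (7.69%, against 12.6% of all tested genes). Kdm7a, an H3K9 and H3K27 demethylase, was at 9.37 to 10.4 CPM in Nnmt KO and 6.2 to 9.16 CPM in control libraries, without overlap (log2 fold change 0.36, standard error 0.16, unadjusted p = 0.0429, adjusted p = 0.377). Its call held in 2 of the 8 fits without 1 library, and the count of demethylases was between 0 and 7 in these fits. The share of all tested genes called is not given here for each of these fits. The m6A demethylases Fto and Alkbh5 did not pass. Of 35 other methyltransferases tested, 1 was higher and 4 were lower (14.3%, near the 12.6% of all tested genes). The lower ones were Mettl1, Emg1, Mettl16 and Trdmt1, and DESeq2 called Mettl1 and Emg1 at an adjusted p of 0.05 (3.35% of all genes). Mettl1, which makes m7G in tRNA, was at 22, 25.6, 25.3 and 24.6 CPM in Nnmt KO and 37.2, 31.9, 29.3 and 32.6 CPM in control libraries, and Emg1, a methyltransferase of 18S rRNA, was at 27.1 to 31.3 CPM and 34.9 to 39.9 CPM. Neither overlapped between genotypes, with log2 fold changes of -0.43 (unadjusted p = 0.00192, adjusted p = 0.114) and -0.34 (unadjusted p = 0.00362, adjusted p = 0.145) in edgeR's test. Prdm16, a lysine methyltransferase gene at 0.651 to 1.95 CPM, was the higher one (log2 fold change 0.68, standard error 0.28, unadjusted p = 0.0316, adjusted p = 0.334).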

How the data were processed

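Liver RNA was sequenced from 4 Nnmt KO and 4 control mice. Per the submitters' processing notes the reads were aligned with HISAT2 and quantified with StringTie on mm10, with the annotation and the use of strand not given in the sources used here. The authors deposited whole-number estimated counts per gene without normalization. Over all libraries 2639 values were 4, more than the 2128 values of 3 or the 1703 of 2, so 1 count may not stand for 1 read pair, and any counting floor is only a guide. The methods name a KAPA kit and the labels a NEBNext kit. The columns carry no mouse number, so libraries were lettered a to d by their order within a genotype. The p-values set the difference between genotypes against the spread between these mice. No pair of libraries within a genotype was a copy (chi-square per degree of freedom at least 42.2).

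Genes passing edgeR's filterByExpr (minimum count 10) were fitted together with TMM scaling and the quasi-likelihood test (edgeR 4.0.16, R 4.3.3), with Benjamini-Hochberg adjustment over 15291 genes. CPM in the text is TMM-normalized. DESeq2 1.42.0, other scalings, no filter and leaving out each library were alternatives. The fits were tested on simulated data. Of the members, 36 were found by symbol and 5 (Kmt5a, Kmt5b, Kmt5c, Nsd2, Nsd3) by Ensembl identifier under an older symbol. Positions and exon lengths (union of exons) are from GENCODE M21 on GRCm38, by symbol for Prmt1. The exons of 19 members share bases with another annotated gene, 11 of them over more than 5% of their length. Without strand these reads cannot be told apart. Promoters are RefSeq's, with the start of most CpG pairs where several were listed. Rbm15b was at 0 under its current identifier and was not tested.

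The members and lists were chosen with earlier results of these data known. Values in every library were given for members with an unadjusted p under 0.05, members without overlap and the member of each class highest per kilobase, and of the other lists those with an unadjusted p under 0.05 and no overlap are named. Setd7, Carm1, Dnmt1, Uhrf1, the Mcm genes, Mettl16 and Trdmt1 were named after their values were seen.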

Additional observations from a re-analysis of the deposited data

Results flagged for a closer look

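Within a genotype, 7 of the 102 groups of 4 libraries examined (the 41 members, Nnmt, 8 other named genes and the TMM factors) held 1 library far from the other 3 by Dixon's criterion, where chance alone gives about 1 in 20, or 5.1 groups. Nnmt KO library a was apart for Dnmt1, at 23.2 CPM where libraries b to d had 10.5 to 12.7 CPM, for Setdb1, at 18.5 CPM against 16 CPM in each of the others, and for its TMM factor, at 1.21 against 0.952 to 0.977. Prmt3 was apart in both genotypes, at 10.4 CPM in Nnmt KO library d against 8.8 to 8.97 CPM, and at 10.6 CPM in control library b against 12.1 to 12.3 CPM. These are the libraries in which its genotypes came closest. Prmt5 was at 30.2 CPM in Nnmt KO library c against 28.4 to 28.7 CPM elsewhere in that group. Aebp2 was at 15.4 CPM in control library d against 19.9 to 20.6 CPM.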

How the results depend on the processing

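Alternatives were set at the start, except the comparison with genes of like length, which was chosen after seeing the data. An adjusted p under 0.05 left 0 of the 4 called members. With scaling by library size only, the members' median was 0.078 on the log2 scale (all genes 0.07), 3 partner, 0 demethylase and 3 other methyltransferase genes were called, Prmt3 lost its call and Mettl3 turned to 0.0032. Relative to genes of like length the median was -0.079. Leaving out 1 library at a time gave 3 to 6 called members and medians from -0.02 to 0.03. It gave 3 to 7 partner, 0 to 7 demethylase and 3 to 7 other methyltransferase calls, the highest of each list without control library c. Without Nnmt KO library a, 13.3% of all tested genes were called. That share is not given here for the other leave-one-out fits or for scaling by library size only. A change in these counts therefore need not be particular to the lists. Values near 0 changed sign in these fits, with ranges from -0.079 to 0.23 for Dnmt3a, -0.030 to 0.099 for Kmt2b and -0.064 to 0.12 for Dot1l. The causes were not tested. Smyd5, Ash1l, Aebp2, Pagr1a, Clns1a, Mettl1 and Emg1 kept an unadjusted p under 0.05 in all 12 alternatives. Prdm16 lost it without Nnmt KO library a or control library a or d. Suv39h2 rests on 6 to 45 counts per library. No paired analysis was possible because the columns carry no mouse number.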
